A study of Rattus norvegicus with 3 samples.

Results

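Metallothioneins, their transcription factor Mtf1 and 3 zinc transporters were examined in the cerebellar cortex of rats after middle cerebral artery occlusion (MCAO). The 7 genes are Mt1, Mt2A, Mt3, Mtf1, Slc30a1, Slc30a3 and Slc39a14. They were selected on array values of these same samples, in which the ratio of Mt2A to the control group was already known to be high, so the values of all 7 genes are given as a description with no test. Each gene was read from every probe whose accession belongs to its symbol in the rat RefSeq annotation, and the 7 genes were 7 of 38973 on the array, with 9 probes on 36 spots. All 36 spots were well above background on all 3 arrays by the criterion of the scanner software, and 0 of them were outlier spots.

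The study looked at gene expression in the cerebellum, a region away from the cerebral infarct, after transient occlusion of the right middle cerebral artery by a filament. The animals were male Wistar rats, 9 weeks old, and the cerebellar cortex was taken 2 days after the operation. In the MCAO group, the left cerebellar cortex (contralateral to the infarct) and the right cerebellar cortex (ipsilateral to the infarct) came from the same 4 rats, whose tissue was pooled by side for 1 array each, and only rats within a set range of neurological scores were used. Control rats had the carotid artery exposed but not opened, and the left cerebellar cortex of 4 of them was pooled for 1 array. The right cerebellar cortex of MCAO rats was therefore compared with the left cerebellar cortex of control rats. There were no replicate arrays, so no p-value was computed, and the number of arrays limits the precision of each value. Signals are intensities of single-colour spots, scaled so that the 75th percentile of all spots that are not controls was the same on each array. The error beside a log2 ratio is the one that the scanner software gives for a spot, and it covers neither rats nor hybridisations.

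Metallothioneins are small cysteine-rich proteins that bind zinc and copper. Mtf1 senses free zinc in the cell and activates the metallothionein genes and Slc30a1 through metal response elements, short DNA motifs before their starts. The metallothionein genes Mt1 and Mt2A are also known to respond to glucocorticoids, to cytokines that act through STAT3 and to oxidative stress, and are strongly expressed in astrocytes, including the Bergmann glia of the cerebellum. Proteins of the Slc30 family move zinc out of the cytosol, across the cell membrane or into vesicles, and proteins of the Slc39 family move zinc into the cytosol.

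The arrays carried the markers of the labelled tissue. All 10 granule cell markers and all 8 Purkinje cell markers were well above background on all 3 arrays. Their summed scaled signals were 93340 (contralateral), 92800 (ipsilateral) and 96412 (control) for granule cell markers, with Cbln1 as the brightest gene. For Purkinje cell markers, the sums were 401723, 427789 and 348155 in the same order, with Aldoc as the brightest gene. Aldoc alone gave 228140, 256822 and 188969 of these, so the sums mostly describe this gene. The median log2 ratio to control was 0.0050 contralaterally and -0.078 ipsilaterally for granule cell markers. It was 0.14 and 0.11 for Purkinje cell markers, and these signs, like that of the contralateral granule cell median, turned without scaling. No gene of either list had a log2 ratio above 1 or below -1 on either side. The lowest and highest contralateral log2 ratios were those of Zic1 (-0.19) and Zic2 (0.45) among granule cell markers, and of Pcp2 (-0.036) and Aldoc (0.27) among Purkinje cell markers.

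Mt1 and Mt2A had higher signals in the cerebellar cortex of the MCAO group on both sides. The scaled signal of Mt1 was 4208 contralaterally, 4349 ipsilaterally and 1746 in the control group. Its single probe was printed on 10 spots, with ranges of 4026 to 4511 contralaterally, 4009 to 4722 ipsilaterally and 1638 to 1911 in the control group. No spot of the MCAO arrays thus overlapped those of the control array, and the spots of both MCAO arrays had overlapping ranges. Spots are copies of a probe on 1 array and not replicates of a group. Over 1323 replicated probes, their median standard deviation was 0.048 to 0.049 in log2, so small shifts also separate spots. The share of other probes separated in this way is not given here, and nothing is read from the separation. The log2 ratio of Mt1 to control was 1.27 contralaterally and 1.32 ipsilaterally, each with an error of 0.20, which was 2.41-fold and 2.49-fold. In bulk tissue, fewer cells of a type and less RNA per cell cannot be told apart, and neither can more cells and more RNA per cell.

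Mt2A had the higher ratios of both genes. Its scaled signal, read from a single spot on each array, was 20293 contralaterally, 20701 ipsilaterally and 5264 in the control group. The log2 ratio to control was 1.95 contralaterally and 1.98 ipsilaterally, with an error of 0.20 each, which was 3.85-fold and 3.93-fold. Both MCAO arrays were high and the control array was low, with no spot replicate to give a range. The probe sequences were not used here, so how far the probes of Mt1 and Mt2A share targets was not examined.

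Mt3, the brain form of the family, which is found in neurons as well as glia, was closer to the control group. Its scaled signal was 17944 contralaterally, 17365 ipsilaterally and 14454 in the control group. The 10 spots ranged from 17252 to 18371, from 17048 to 17828 and from 14101 to 14757 in the same order. With this scaling, every spot of the MCAO arrays was therefore above every spot of the control array. As for Mt1, the share of other probes separated in this way is not given here. The log2 ratio was 0.31 contralaterally and 0.26 ipsilaterally, with an error of 0.20. When the arrays were not scaled, the contralateral value was 0.16, within the error, and the ipsilateral value was -0.27. With scaling to spike-in probes, the ipsilateral value was 0.012. Of the remaining metallothioneins, Mt4, an epithelial form, was well above background on the ipsilateral array alone, and Mt1m could not be matched to the array.

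**Figure D1:**
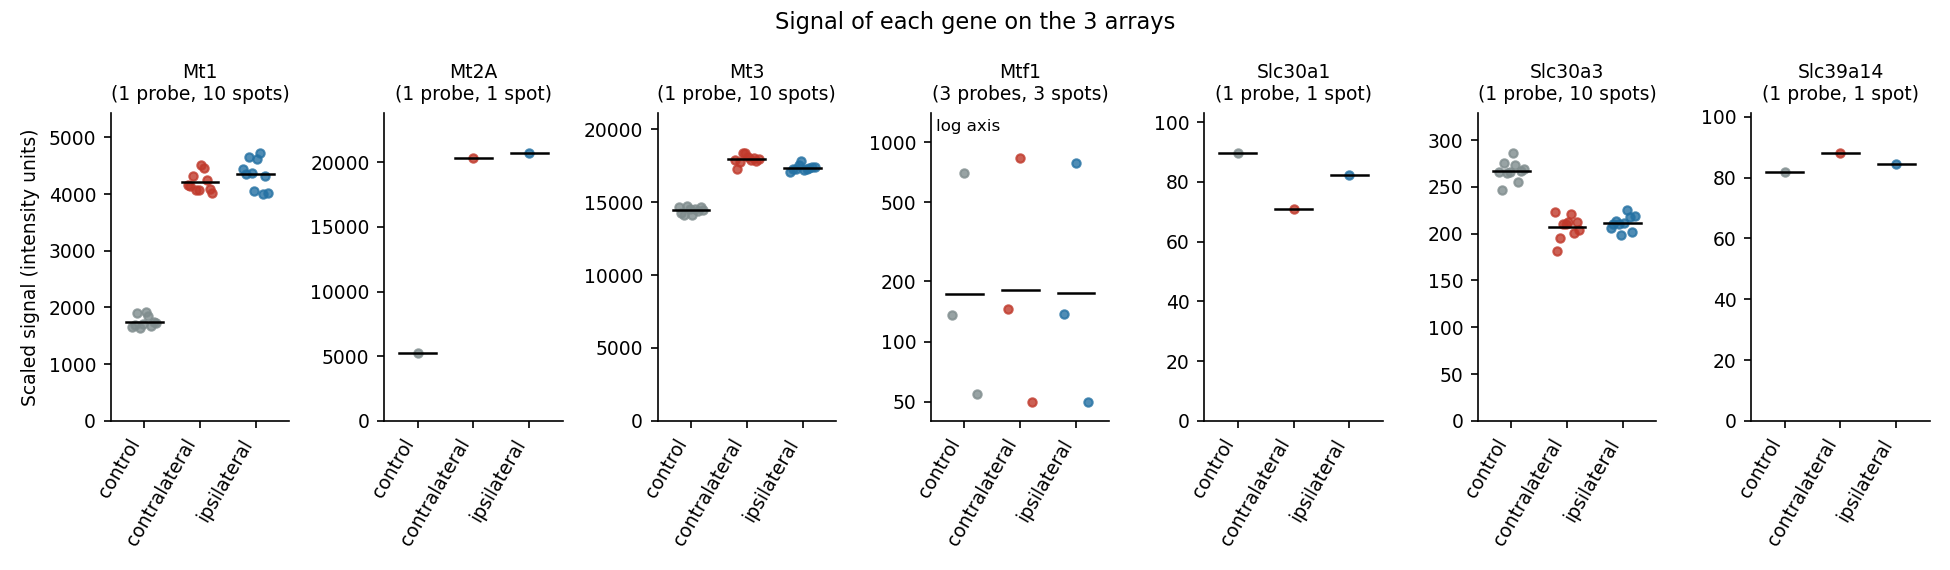
Scaled signal (intensity units, from 0 except for the log axis of Mtf1) of the 7 genes on the control, contralateral and ipsilateral arrays, where points are spots and lines are the mean of the probes on the log2 scale. All spots of Mt1, Mt2A and Mt3 on the MCAO arrays lie above those on the control array, with Mt1 at 1746 on the control array against 4208 and 4349, and all spots of Slc30a3 lie below.

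Read against all genes, Mt1 and Mt2A were 2 of the 7 genes with a log2 ratio above 1 in the contralateral cerebellar cortex, where 312 of 22085 measured genes (1.41%) had such a ratio. In the ipsilateral cerebellar cortex, the same 2 genes were above 1, and so were 684 of all genes (3.10%). Of the 7 genes, 0 had a log2 ratio below -1 on either side, against 0.851% of all genes contralaterally and 0.797% ipsilaterally. The genes were selected on these comparisons, so nothing is read from the difference. Ordered from the highest ratio, Mt2A was at position 26 of 22085 contralaterally and 28 ipsilaterally, and Mt1 was at 161 and 312. Both comparisons use the same control array and pools of the same 4 rats, so the values of both sides are not independent of each other. Without scaling between arrays, the median ratio of all genes moved by -0.53 on the ipsilateral side. The ipsilateral log2 ratio of Mt1 was then 0.78, under the threshold of 1. Of all genes, 133 were then above 1 and 1139 below -1 on this side, and 218 and 323 contralaterally.

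Between the sides of the MCAO group, the genes differed by less than the error of the scanner software. The log2 ratio of the contralateral to the ipsilateral array was -0.047 for Mt1, -0.029 for Mt2A and 0.047 for Mt3. It was 0.056 for Mtf1, -0.21 for Slc30a1, -0.030 for Slc30a3 and 0.062 for Slc39a14, with errors from 0.20 to 0.22. The gene farthest from 0 was thus Slc30a1, which was lower on the contralateral side by about its error. Without scaling, all 7 ratios were above 0, from 0.17 for Slc30a1 to 0.44 for Slc39a14, where the median ratio of all genes was 0.37. None of the 7 genes had a ratio above 1 or below -1 between the sides, against 0.217% and 1.54% of all genes. These were 48 and 340 genes, and without scaling they were 163 and 110, so that more genes were above 1 than below -1.

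**Figure D2:**
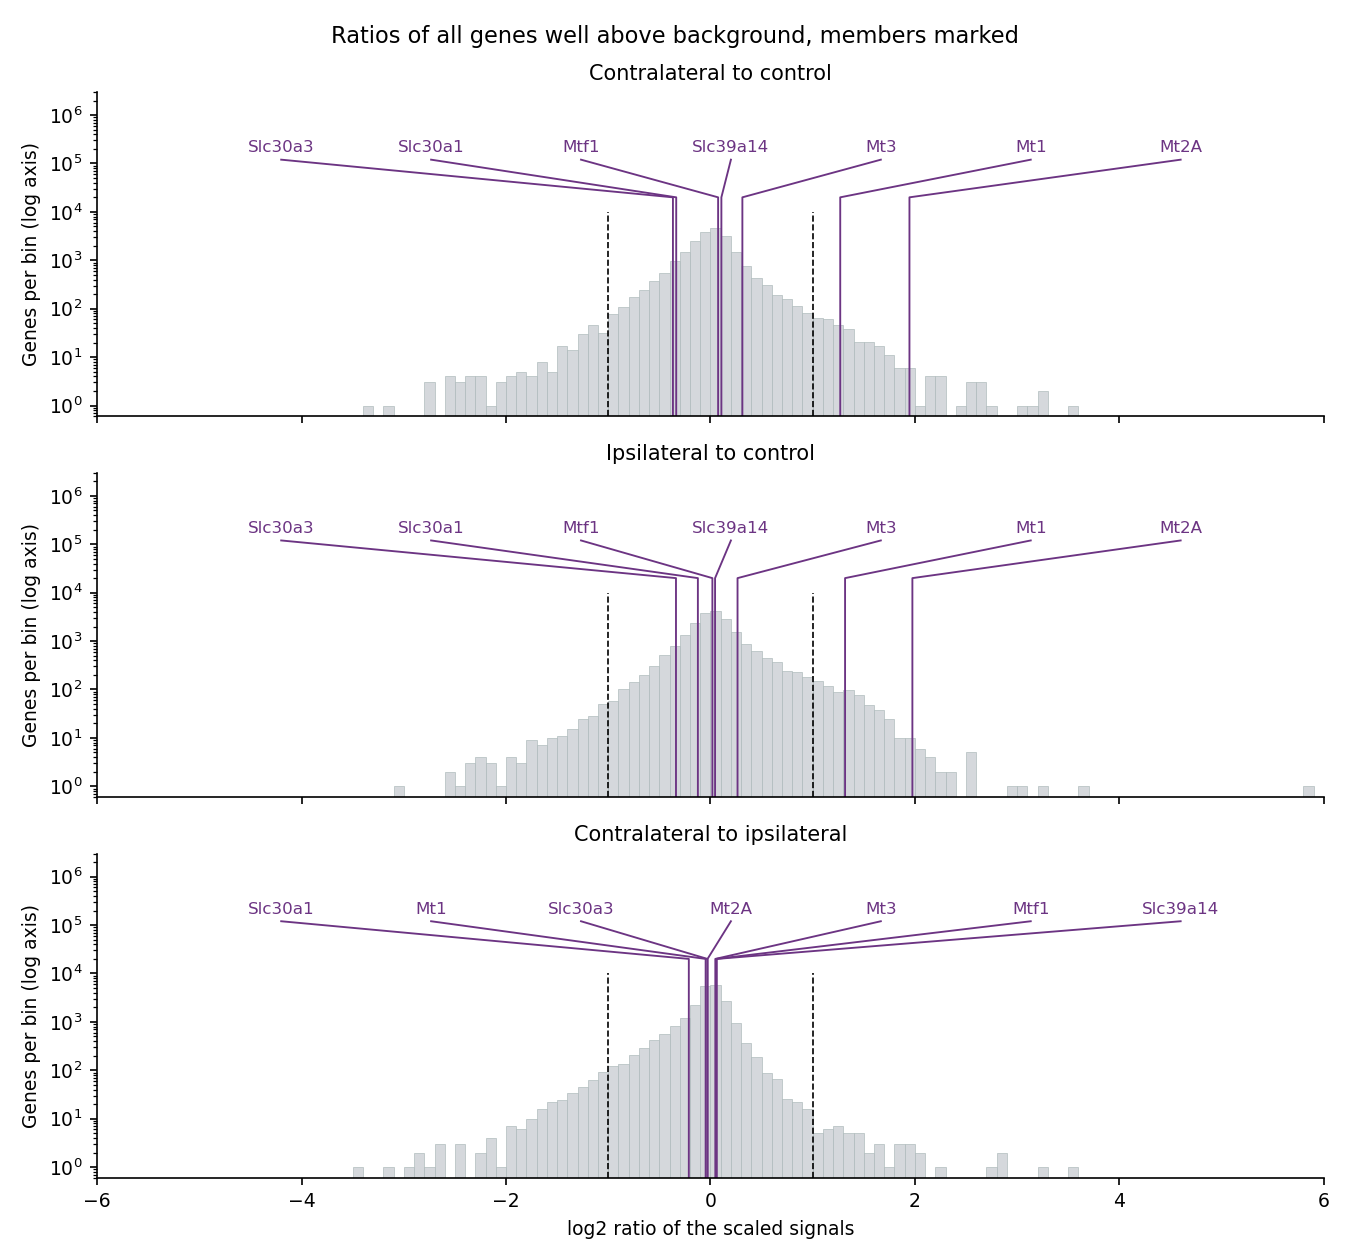
Number of measured genes, those with every spot well above background (log axis), by log2 ratio of the scaled signals, in bins, for the contralateral to control, ipsilateral to control and contralateral to ipsilateral comparisons, with the 7 genes marked and dashed lines at -1 and 1. Mt1 (1.27 and 1.32) and Mt2A (1.95 and 1.98) lie beyond 1 in the comparisons with the control array, and all 7 genes lie within 0.22 of 0 between the sides.

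The bases before the metallothionein genes and Slc30a1 are shown because these genes are the best known targets of Mtf1, and Mt1 and Mt2A were high together while Slc30a1 was not. Mt1, Mt2A, Mt3 and Mt4 follow each other in this order on chromosome 19 in the RefSeq annotation. Each sequence holds the 250 bases before the annotated gene start, on the strand of the gene, from RefSeq (GRCr8): chr19:10832976-10833225 (minus strand) for Mt1, chr19:10838709-10838958 (minus strand) for Mt2A, chr19:10856081-10856330 (minus strand) for Mt3 and chr13:106021769-106022018 (plus strand) for Slc30a1. Capitals mark each match to the core of the metal response element, TGCACNC or TGCGCNC, on either strand.
Mt1: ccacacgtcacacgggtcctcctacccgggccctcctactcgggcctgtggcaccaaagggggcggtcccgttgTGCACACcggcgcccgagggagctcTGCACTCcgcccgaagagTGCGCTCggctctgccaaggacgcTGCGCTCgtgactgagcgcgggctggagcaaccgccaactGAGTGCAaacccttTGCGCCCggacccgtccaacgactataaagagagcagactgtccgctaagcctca
Mt2A: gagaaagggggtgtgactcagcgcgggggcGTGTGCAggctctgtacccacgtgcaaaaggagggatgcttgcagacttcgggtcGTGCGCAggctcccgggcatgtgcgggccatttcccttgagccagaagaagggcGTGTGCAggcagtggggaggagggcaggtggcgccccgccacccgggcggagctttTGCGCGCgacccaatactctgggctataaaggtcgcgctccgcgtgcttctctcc
Mt3: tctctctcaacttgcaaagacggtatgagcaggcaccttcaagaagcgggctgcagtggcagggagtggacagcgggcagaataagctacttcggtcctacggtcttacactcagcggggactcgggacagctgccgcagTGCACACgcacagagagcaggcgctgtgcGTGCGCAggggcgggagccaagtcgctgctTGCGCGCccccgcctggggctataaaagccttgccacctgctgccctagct
Slc30a1: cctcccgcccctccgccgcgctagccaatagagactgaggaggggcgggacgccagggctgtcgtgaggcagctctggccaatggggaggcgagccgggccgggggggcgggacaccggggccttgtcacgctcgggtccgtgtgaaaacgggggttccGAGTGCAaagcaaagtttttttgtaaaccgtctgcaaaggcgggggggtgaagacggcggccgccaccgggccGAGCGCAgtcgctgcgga

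The core of the metal response element matched 6 times before Mt1, from 176 to 49 bases before the start, and 4 times before Mt2A, from 220 to 49 bases before the start. It matched 3 times before Mt3 and 2 times before Slc30a1. Of 33465 upstream windows of the same length in the annotation, 20.6% held a match, 4.90% held 2 or more, 1.17% held 3 or more, 0.266% held 4 or more and 0.0269% held 6 or more. The windows of Mt1 and Mt2A are therefore among the richest in this motif, and Mt3 and Slc30a1 hold it as well. There were 2 matches before Mtf1 and 0 before Slc30a3, and Slc39a14 was not among the 6 genes with a window. By form, TGCACNC was found in 10.3% of all windows and TGCGCNC in 11.8%, with windows that held both forms counted in each.

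Motifs of other regulators were searched in the same windows on both strands. The antioxidant response element TGACNNNGC matched 1 time each before Mt1, Mt2A and Slc30a1, 2 times before Mtf1 and 0 times before Mt3 and Slc30a3, and was found in 10.1% of all windows. The STAT motif TTCNNNGAA matched in none of the 6 windows, against 7.67% of all windows. A short site of the glucocorticoid receptor, AGAACA, matched 1 time before Mtf1 and 0 times before the other genes, against 17.5% of all windows. No match to the metal response element overlapped another match. A match describes the letters of the window and is neither a bound site nor a cause, and a window without a match says nothing on elements farther away.

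**Figure D3:**
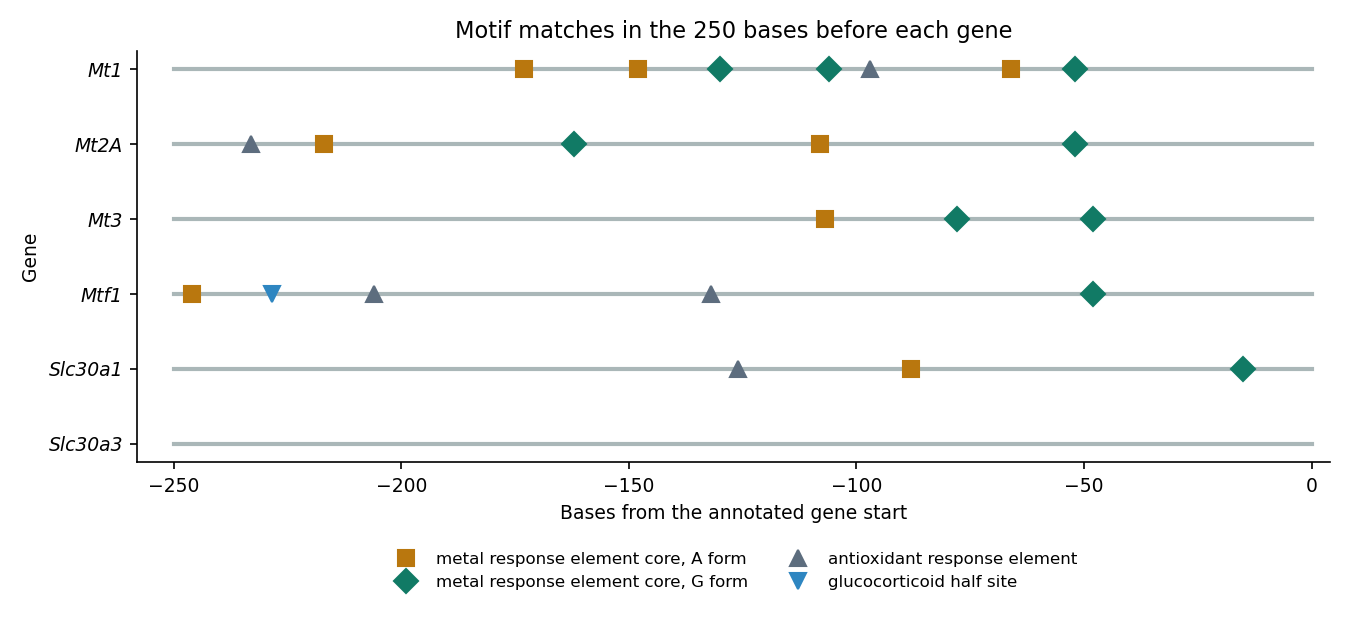
Position of motif matches (symbols, both strands) in the 250 bases before the annotated start of 6 genes, with distance from the start in bases on the horizontal axis. Mt1 has 6 and Mt2A has 4 matches to the metal response element core, Mt3 has 3, Mtf1 and Slc30a1 have 2 each, and Slc30a3 has 0.

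Mtf1, the zinc-sensing activator of these genes, was near the control group on both sides with the arrays scaled to their 75th percentile. The mean scaled signal of its 3 probes was 182 contralaterally, 175 ipsilaterally and 173 in the control group. The log2 ratio was 0.075 contralaterally and 0.019 ipsilaterally, with errors of 0.21, and the ipsilateral value was -0.52 without scaling and -0.23 with scaling to spike-in probes. The probes did not share a direction, with contralateral log2 ratios of 0.11, -0.12 and 0.24 and ipsilateral log2 ratios of 0.020, -0.12 and 0.15. The array measures the mRNA of Mtf1 and not the activity of the protein, which is set by zinc binding.

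Neither zinc exporter among the 7 genes was above the control group. Slc30a1, which moves zinc out of the cell, had a scaled signal of 71.0 contralaterally, 82.3 ipsilaterally and 89.6 in the control group, from a single spot. Its log2 ratio was -0.34 on the contralateral side, beyond the error of 0.21, and -0.12 on the ipsilateral side, within it. This gene thus did not share the high values of Mt1 and Mt2A, and its ipsilateral value was 0.11 after normexp background correction and -0.66 without scaling. Its contralateral value was -0.15 after normexp and -0.21 with 50 added to the signal, both within the error.

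Slc30a3, which loads zinc into synaptic vesicles of glutamatergic neurons, was the lowest of the 7 genes on both sides. Its scaled signal was 207 contralaterally, 211 ipsilaterally and 267 in the control group. The 10 spots ranged from 181 to 223, from 198 to 225 and from 247 to 286 in the same order, so the spots of the MCAO arrays lay below all spots of the control array. As for Mt1, the share of other probes separated in this way is not given here. The log2 ratio was -0.37 contralaterally and -0.34 ipsilaterally, with errors of 0.20 and 0.21, and the ipsilateral value was -0.87 without scaling and -0.18 with normexp. On the contralateral side 9.23% of all genes had a lower ratio, and on the ipsilateral side 8.83%, so these ratios are common on the arrays.

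Slc39a14, a zinc and manganese importer known from the acute phase response of the liver, was near the control group with the same scaling. Its scaled signal, from a single spot, was 88.0 contralaterally, 84.3 ipsilaterally and 81.7 in the control group. The log2 ratio was 0.11 contralaterally and 0.045 ipsilaterally, with errors of 0.21 and 0.22. The ipsilateral value was -0.49 without scaling, beyond the error, and -0.21 with scaling to spike-in probes.

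With probes averaged by gene, both transporter families, with Slc30a1, Slc30a3 and Slc39a14 included, showed no ratio of the size of Mt1 and Mt2A. A single probe of Slc39a5, given below, reached the ratio of Mt1 on the ipsilateral side. Of 24 listed genes, 23 were on the array and 20 were well above background on all 3 arrays, while Slc30a2, Slc30a8 and Slc39a2 were not and Slc39a13 could not be matched. On the contralateral side the median log2 ratio of the 20 genes was 0.041, between -0.37 for Slc30a3 and 0.35 for Slc39a12, an importer of astrocytes. On the ipsilateral side the median was -0.044, between -0.78 for Slc30a10, a manganese exporter, and 0.64 for Slc39a5, both named after their values were seen. The medians of all genes were 0.012 and 0.030, so the families lay near the middle of the arrays. None of the 20 genes had a ratio above 1 or below -1 on either side. Of all genes, 1.41% contralaterally and 3.10% ipsilaterally were above 1, and 0.851% and 0.797% were below -1. A count of 0 is near these shares, which also stand beside the counts of every other list here. In other settings Slc30a10 was below -1 on the ipsilateral side, at -1.31 without scaling, -1.03 with scaling to spike-in probes and -1.16 after quantile normalization. This gene was read from 1 dim spot, at 28.7 contralaterally, 15.7 ipsilaterally and 26.8 in the control group, with an ipsilateral error of 0.33. With normexp no transporter was below -0.18 on the ipsilateral side, and with 50 added to the signal none was below -0.28.

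Within the exporters, the 8 measured genes had a median log2 ratio of 0.0065 contralaterally and -0.14 ipsilaterally, and Slc30a4 was highest on the contralateral side at 0.21. Within the importers, the 12 measured genes had medians of 0.041 and 0.079, and Slc39a8 was lowest on the contralateral side at -0.27. The sign of these medians differed between settings, and relative to the median of all genes the exporters lay between -0.032 and 0.0070 on the contralateral side and between -0.17 and -0.082 on the ipsilateral side. Slc39a5 had probes that disagreed, with ipsilateral log2 ratios of -0.048 and 1.33.

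**Figure D4:**
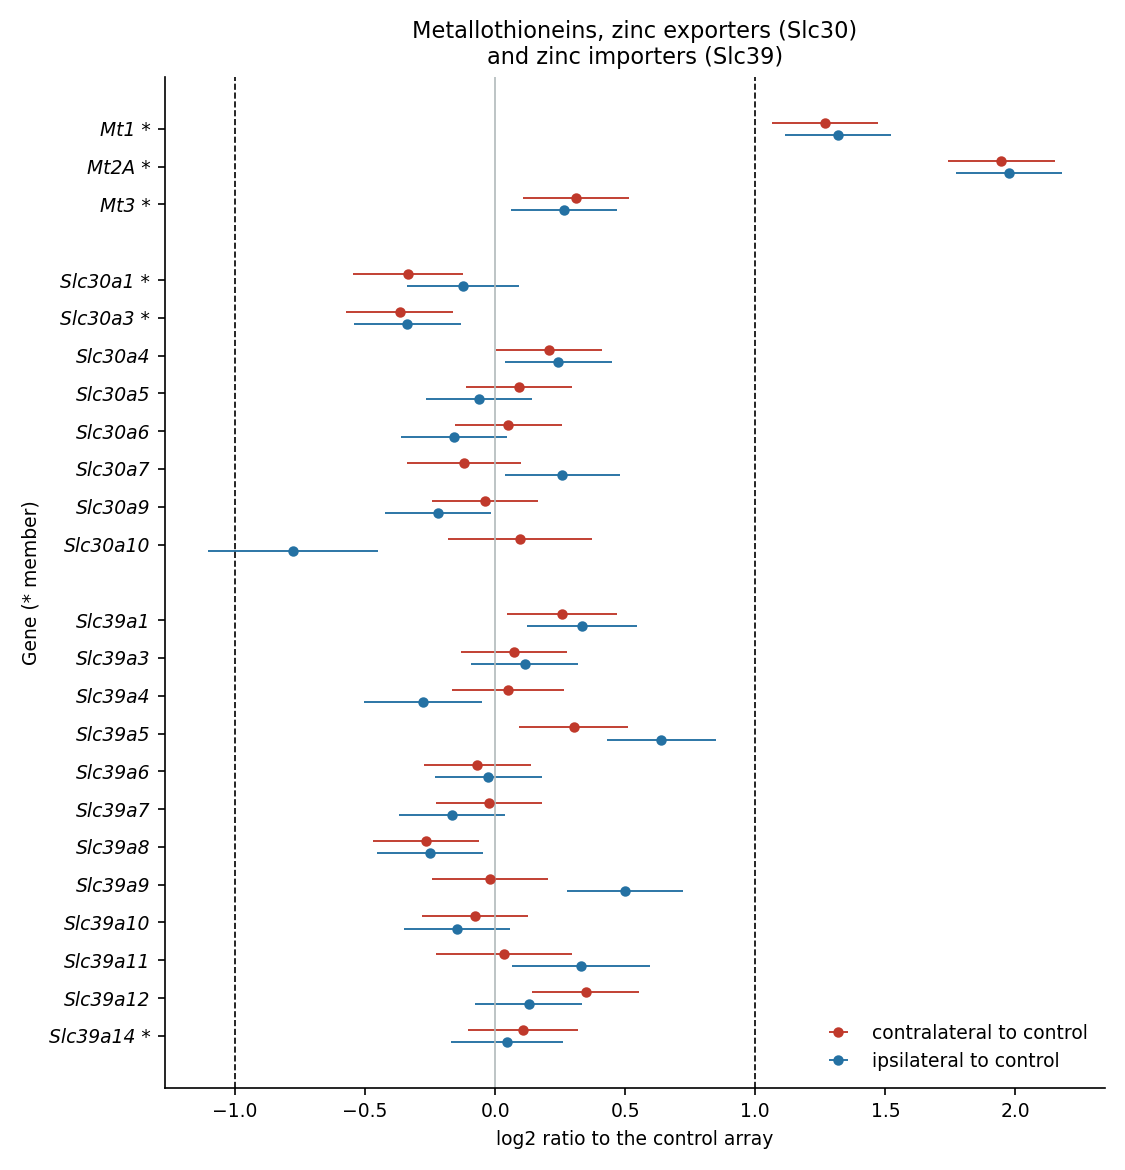
Log2 ratio to the control array, with the error of the scanner software as bars, of the 3 metallothioneins, 8 zinc exporters and 12 zinc importers well above background on all 3 arrays, for the contralateral and ipsilateral sides. Only Mt1 and Mt2A lie beyond the dashed line at 1, and 0 of the 20 transporters lie beyond -1 or 1, although Slc30a10 does so on the ipsilateral side under 3 other settings. Slc30a10 was read from 1 dim spot, and with normexp no transporter was below -0.18 on that side.

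Genes that handle other metals were given beside the zinc genes, since metallothioneins also bind copper. The 10 copper genes well above background had a median log2 ratio of 0.094 contralaterally and 0.13 ipsilaterally, both below 0 without scaling, with 0 genes beyond 1. Ceruloplasmin (Cp), the copper protein of plasma and astrocytes, was highest at 0.54 and 0.91, and the copper pump Atp7a was lowest on the contralateral side at -0.10. The 11 iron and manganese genes had medians of -0.12 and -0.24, the ipsilateral one above 0 with normexp, from -0.59 for Hamp to 0.83 for Heph on the contralateral side. None of them was beyond 1 or -1 on either side, except in some settings. Slc30a10 was below -1 on the ipsilateral side in the settings given above for it, and Tf was at -1.01 there without scaling.

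Regulators known to induce metallothioneins were described by lists of their target genes. The list of glucocorticoid-induced genes held 12 genes, of which 9 were well above background in every probe and Zbtb16, Pdk4 and Cdkn1a were not. The median log2 ratio of the 9 genes was 0.54 contralaterally and 0.64 ipsilaterally, and the latter was 0.11 without scaling. On each side 8 of 9 genes were above 0, against 52.4% and 55.9% of all genes, and on the ipsilateral side without scaling 5 of 9 were, against 9.10%. Sgk1, a kinase that is a classic glucocorticoid target, was above 1 on both sides, at 1.34 and 1.42, with an ipsilateral value of 0.88 without scaling, and Dusp1 was lowest on the contralateral side at -0.15. Relative to the median of all genes, the median of the list lay between 0.47 and 0.57 on the contralateral side and between 0.49 and 0.62 on the ipsilateral side in all settings.

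The genes of this list that were left out included higher ratios than those kept, and their values are given as seen afterwards. Zbtb16 had log2 ratios of 2.27 and 2.26 with errors of 0.31, and all 3 of its spots were well above background on both MCAO arrays but 2 of 3 on the control array. Cdkn1a had 1.88 and 1.98 with errors of 0.98 and 0.99, from 8 of 8 spots well above background on the contralateral array and 7 of 8 on each other array. Pdk4 had no spot well above background on any array. The requirement on the control array can thus leave out a gene because it was low there.

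Between the sides, the list for interleukin-6 and STAT3 had a median log2 ratio of -0.36, and of 0.021 without scaling. Of its 10 genes, 7 were well above background, and Il6r, Osmr and Serpina3n were not. The median log2 ratio was 0.081 contralaterally, where it was below 0 without scaling, and 0.83 ipsilaterally, where it was 0.29 without scaling, and the difference was not tested. Lrg1, a glycoprotein induced through STAT3, was above 1 on both sides, at 1.19 and 1.55, and Socs3, the feedback inhibitor of the pathway, was lowest on the contralateral side at -0.22.

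For targets of Nrf2, the regulator of the antioxidant response, 6 of 8 genes were well above background, and Gclm and Osgin1 were not. The median log2 ratio was 0.25 contralaterally and 0.16 ipsilaterally, and the ipsilateral median was below 0 without scaling and with scaling to spike-in probes. Nqo1 was highest on the contralateral side at 0.74 and Slc7a11 was lowest at -0.31. None was beyond 1 or -1 on either side, except for Slc7a11 at -1.03 on the ipsilateral side without scaling. The part of any of these regulators in the metallothionein values was not tested.

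For Slc30a3, the list of its partners in synaptic vesicles gives the values of genes that share its compartment. Of the genes on this list, 6 were well above background and Gpr39, a zinc receptor, was not. The median log2 ratio was 0.029 contralaterally and 0.037 ipsilaterally, near the median of all genes and below 0 without scaling. Slc17a7, the vesicular glutamate transporter whose vesicles carry Slc30a3 in the forebrain, was lowest on the contralateral side at -0.25, and the chloride transporter Clcn3 was highest at 0.31. On the ipsilateral side, Slc17a7 was at -0.36 and Slc17a6, another vesicular glutamate transporter, was lowest at -0.53. Without scaling, Slc17a6 was beyond -1 on this side.

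Markers of cell types were summed over the listed genes on the array, dim ones included. All 10 markers of astrocytes and Bergmann glia were well above background. Their summed scaled signals were 77227 on the contralateral, 77757 on the ipsilateral and 85435 on the control array. The brightest gene was S100b on both MCAO arrays and Aqp4 on the control array. The median log2 ratio of these markers was -0.072 contralaterally and -0.038 ipsilaterally, from -0.73 for Gfap to 0.39 for Gdf10 on the contralateral side. The ipsilateral value of Gfap was -1.19 without scaling, and the contralateral median was 0.054 when the brightest probe of each gene was used. All 8 microglia and macrophage markers were well above background, with sums of 7566, 9373 and 5987 and C1qa as the brightest gene. Their medians were 0.19 and 0.31, the ipsilateral one below 0 without scaling, with Cx3cr1 highest at 0.78 and 1.27 (ipsilaterally 0.74 without scaling) and Aif1 lowest on the contralateral side at -0.29.

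Markers of tissue next to the cerebellar cortex were read in the same way. Of 10 choroid plexus markers, 8 were well above background and Kl and Prlr were not, and the sums were 11837 on the contralateral, 78268 on the ipsilateral and 35655 on the control array, with Ttr as the brightest gene. Ttr had a log2 ratio of -1.73 contralaterally and 1.19 ipsilaterally, Slc4a5 had -2.12 and -1.20, and Otx2 was highest on the contralateral side at -0.025. The ipsilateral value of Ttr was 0.66 without scaling and 0.94 with scaling to spike-in probes. Slc4a5 was within the threshold on both sides with normexp, at -0.55 and -0.16, and with 50 added to the signal, at -0.74 and -0.51. The ipsilateral median of the list was below 0 without scaling. Leptomeningeal markers were all below 0 on the contralateral side in 7 of 7 genes well above background. Of all genes, 52.4% were above 0 on this side, and 23.2% without scaling. The leptomeningeal markers had a median of -0.85 and sums of 7302, 9858.5 and 12795, and Slc13a4 could not be matched. Col1a2 was the brightest of them, Col1a1 was lowest at -1.26 (-0.97 for its brightest probe) and Dcn was highest at -0.033 on the contralateral side, and the ipsilateral median was -0.37. With normexp the medians were -0.34 and -0.16, and without scaling the contralateral one was just beyond -1 and the ipsilateral one was -0.90.

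Of 12 forebrain glutamatergic neuron markers, 6 were well above background, Camk2a, Tbr1 and Rasgrf2 were among those that were not, and Emx1 could not be matched. The sums were 4246 on the contralateral, 3377 on the ipsilateral and 3259 on the control array, with Neurod2 as the brightest gene. Neurod2 gave 1588, 1611 and 1569 of these in the same order and hardly differed between arrays. The sums alone therefore do not show forebrain tissue on an array. The median log2 ratio was 0.62 contralaterally and 0.047 ipsilaterally, the former 0.18 with 50 added to the signal and the latter below 0 without scaling. Cck, Nrgn and Bcl11b were above 1 on the contralateral side, at 3.56, 1.83 and 1.23, and at 0.28, -0.21 and 0.86 on the ipsilateral side, while Neurod6 was lowest on the contralateral side at -0.054. The contralateral value of Bcl11b was 0.43 with normexp and 0.34 with 50 added to the signal, and its ipsilateral value was 1.26 for its brightest probe.

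No endothelial or oligodendrocyte marker had a ratio beyond 1 or -1 on either side, except that the ipsilateral values were -1.30 for Kdr and -1.01 for Cnp without scaling and -1.02 for Kdr with scaling to spike-in probes. All 8 endothelial markers were well above background, with medians of -0.22 and -0.12 and sums of 5962, 6072 and 7475. The brightest gene was Cldn5 on both MCAO arrays and Kdr on the control array. On the contralateral side, Kdr had the lowest ratio at -0.66 and Flt1 the highest at 0.036. All 8 oligodendrocyte markers were well above background, with medians of -0.13 and -0.090, Cnp as the lowest at -0.47 and Mobp as the highest at 0.28 on the contralateral side. Of the erythroid markers, Hba-a2 alone was well above background, at -0.85 and -0.82 (beyond -1 on both sides without scaling, -0.37 and -0.15 with normexp), while Hbb, Alas2 and Slc4a1 were not, and the sums were 77.6, 82.3 and 167. The part of these cell types in the result was not tested.

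**Figure D5:**
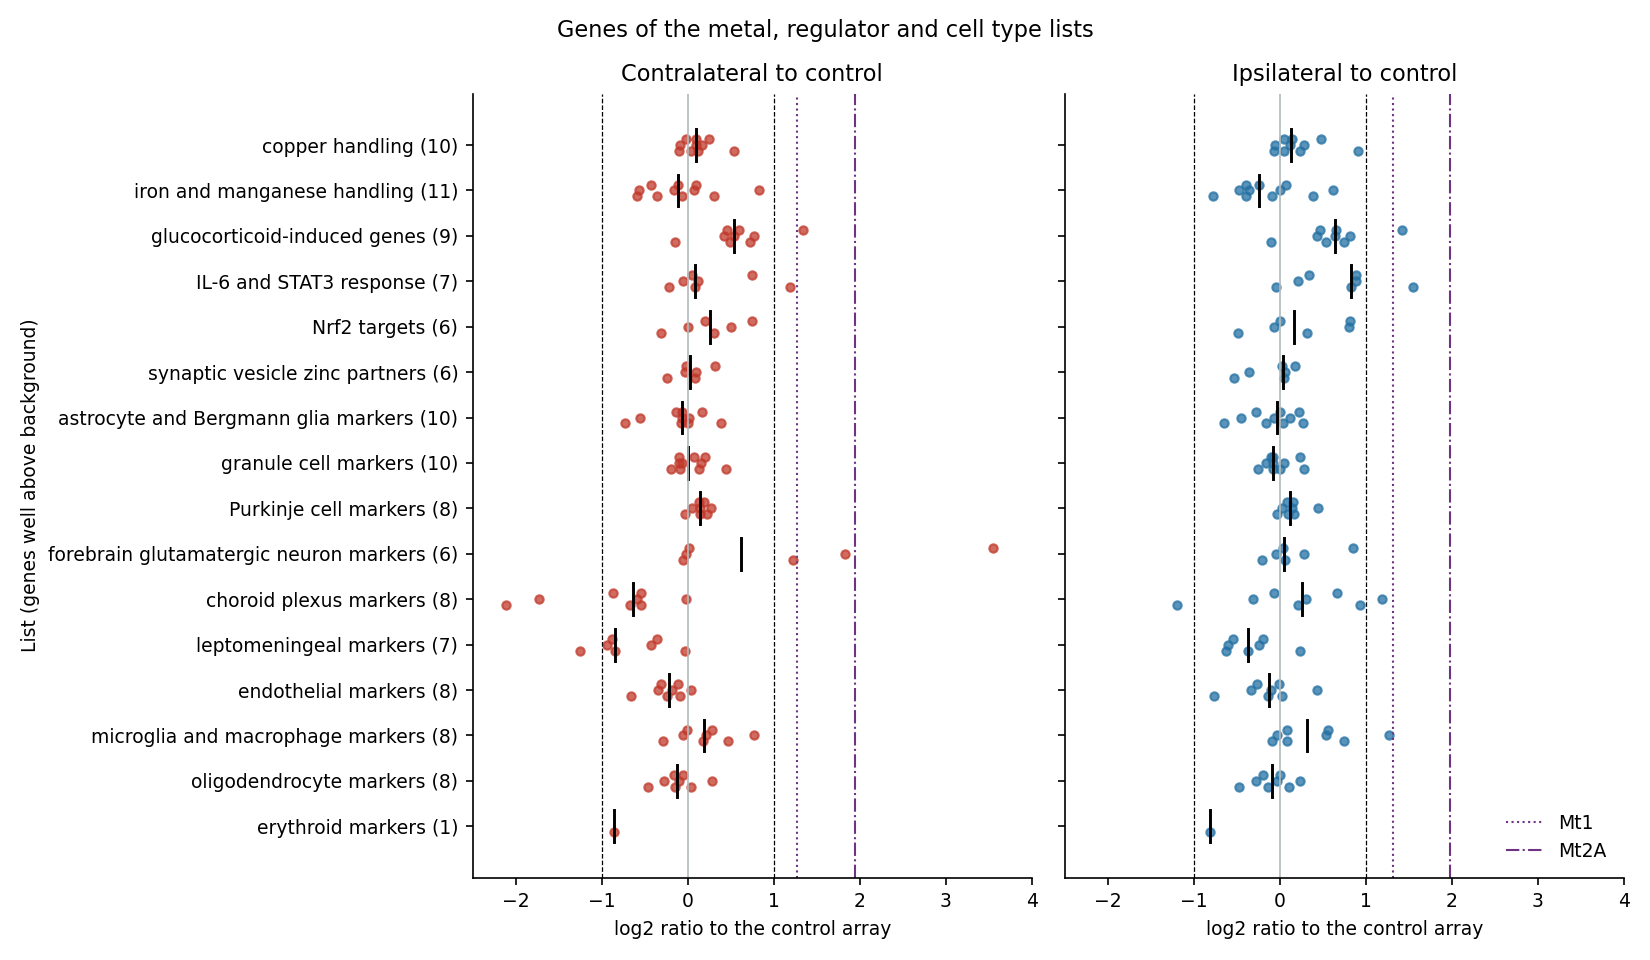
Log2 ratio to the control array of the genes of 16 lists on the contralateral and ipsilateral sides, where points are genes well above background on all 3 arrays, black bars are list medians, purple lines are Mt1 and Mt2A, and dashed lines are -1 and 1. The glucocorticoid-induced genes have medians of 0.54 and 0.64, the astrocyte markers have medians of -0.072 and -0.038, and the choroid plexus markers have a median of -0.64 contralaterally and 0.26 ipsilaterally.

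The genes closest to Mt1, Mt2A and Slc30a3 were taken among 11250 genes with a symbol and well above background, by the distance between their log2 ratios to control on both sides. Over 3 arrays this measure finds genes of like ratios and no more. For Mt1 the nearest were Rhbdl2, Fibin, Smpdl3b, Bcl6 and Vom2r70, at distances from 0.0088 to 0.12. For Mt2A they were Grifin, LOC102549755, Sult1a1, Msmp and Tas2r120, at distances from 0.063 to 0.37, so few genes had ratios as high on both sides. For Slc30a3 they were Plk2, Enpep, Myh14, Nipal4 and Fbxl22, at distances from 0.0063 to 0.014, where many genes had like ratios.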

How the data were processed

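The deposited intensity of each spot, background-subtracted by the authors in Agilent Feature Extraction 12.1.0.3, was the starting point here. The table the authors deposited held these intensity values times 1.12 (contralateral), 1.45 (ipsilateral) and 1.04 (control). The methods name a normalization to control samples, and whether it is these factors is not stated.

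Log2 signals were shifted to a common 75th percentile over 58717 spots that are not controls, of which 42470, 43028 and 43283 were well above background. That percentile was 2103, 1614 and 2336 in the same order, and 0 spots were saturated. A total of 759 outlier spots were left out. Spots were averaged by probe and probes by gene. There was no gene name column, so genes were formed by RefSeq symbol (GRCr8; 17622 of 39957 accessions matched) or else by accession. A gene counted as measured when every spot of every probe was well above background on each array. The threshold was a log2 ratio of 1, taken from the methods of the study. Scanner error was the root mean square over spots, combined for both arrays.

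The members and the 19 gene lists were chosen with earlier results of these data known. Named genes were the 7 members, measured list genes beyond the threshold, the highest and lowest contralateral ratio of each list, and the 5 nearest genes of Mt1, Mt2A and Slc30a3 by Euclidean distance. Others are named as seen afterwards. Some list genes and the results that need them are not reported here.

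The 10 alternatives were no scaling, common median, 8 spike-in probes, quantile normalization, deposited values, normexp (offset 50, on median signals for want of mean signals), 50 added to the signal, outlier spots kept, brightest probe and only probes well above background. R 4.3.3 with limma 3.58.1 and Python 3.11.15 with numpy 2.4.6, pandas 2.3.3 and matplotlib 3.10.9 were used.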

Additional observations from a re-analysis of the deposited data

Results flagged for a closer look

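No metallothionein, zinc transporter or Mtf1 ratio to control had opposite signs on the sides with each beyond its scanner error. Among the listed genes well above background on all 3 arrays, 4 of the 8 choroid plexus markers had such opposite signs. They were lower than the control array on the contralateral side and higher on the ipsilateral side, each beyond its error. The share of all measured genes with such signs is not given here, so nothing is read from this count. The log2 ratios were -1.73 and 1.19 for Ttr, the thyroxine carrier of the choroid plexus, and -0.87 and 0.93 for the folate receptor Folr1. They were -0.67 and 0.21 for the potassium channel Kcnj13 and -0.55 and 0.66 for the water channel Aqp1. The ipsilateral value of Kcnj13, 0.210, was just beyond its error of 0.206. Without scaling, the ipsilateral values were 0.66, 0.40, -0.32 and 0.13 in the same order, and that of Kcnj13 was -0.043 with scaling to spike-in probes, so that Kcnj13 was then lower on both sides. Of the other measured markers, Slc4a5 (-2.12 and -1.20), Clic6 (-0.55 and -0.31) and Enpp2 (-0.60 and -0.064) were below 0 on both sides. Otx2 had -0.025 and 0.30. Kl, too dim on the contralateral array to be counted here, had -1.53 and 0.45. Prlr had 0.17 and 0.86, but its 2 probes disagreed, at -2.46 and 2.81 contralaterally and at -0.26 and 1.98 ipsilaterally. Of its 2 spots, 1 was well above background on the contralateral and on the control array, and 0 were on the ipsilateral array. Whether the sides differ for these markers was not tested.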

How the results depend on the processing

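The 7 genes gave 21 log2 ratios and 2 counts, each recomputed under 10 other settings. Of 230 values, 207 stayed within the scanner error of the value given or, for a count, within 1.5 times, 23 moved further and 0 ratios beyond 1 turned sign. Of 210 ratios, 60 could not move, since keeping outlier spots, leaving out dim probes and, for genes with 1 probe, taking the brightest probe did not touch their spots. Of the 23 values that moved, the setting without scaling gave 15, the spike-in setting 7 and normexp 1. The median ratio of all genes itself moved by -0.15 (contralateral), -0.53 (ipsilateral) and 0.38 (between the sides) without scaling, and by -0.080, -0.25 and 0.17 with spike-in scaling, and these shifts enter every ratio by construction. Without scaling, the ipsilateral log2 ratio was 0.78 for Mt1 and 1.44 for Mt2A, so that 1 gene and not 2 passed the threshold. With spike-in scaling the values were 1.06 and 1.72. Relative to the median of all genes, Mt1 lay between 1.19 and 1.26 on the contralateral side and between 1.16 and 1.31 on the ipsilateral side, and Mt2A between 1.89 and 1.93 and between 1.85 and 1.95. Signs of the ratios to control of Mtf1 and Slc39a14, and of the ipsilateral ratios of Mt3 and Slc30a1, turned in some settings, and those of Slc30a3 did not. Contralateral genes above 1 and below -1 were 312 and 188, against 218 and 323 without scaling and 51 and 20 with normexp. Ipsilateral genes were 684 and 176, against 133 and 1139 and 116 and 12. Between the sides they were 48 and 340, against 163 and 110, 113 and 164 with quantile normalization, and 3 and 14 with normexp. Mt1 and Mt2A were above 1 on both sides with normexp. With normexp, the ipsilateral ratio moved from -0.12 to 0.11 for Slc30a1, from -0.34 to -0.18 for Slc30a3 and from 0.019 to 0.18 for Mtf1, and with 50 added to the signal these were -0.078, -0.28 and 0.033. Signal over background limits dim spots, but normexp also changed the input, so its part in these moves was not tested. No paired analysis was possible because each group has 1 array.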
